A study of Mus musculus with 11 samples.

Results

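The macrophage-rich spots of mouse liver 36 h after acetaminophen (APAP) were examined. A spot of the Visium array is a small printed area whose captured RNA can come from several cells, so the class is defined by its transcripts and is not a cell type. A spot was called macrophage-rich when its summed unique molecular identifiers (UMIs) of Cd68, Lgals3 and Gpnmb, per 10000 UMIs, lay in the top 10% of its section, and macrophage-low when they lay in the bottom 50%. The rule found 400 macrophage-rich spots, 197 in section A and 203 in section B, among 4005 passing spots at 36 h and 25136 in the series. They were set against 2002 macrophage-low spots, 985 in section A and 1017 in section B. Both sections are liver with the disease label POD and the time 36h. The same rule was applied to 2 POD sections of 24 h, to 4 POD sections of 48 h, and to 3 sections of 0 h labelled Uninjured. Per the study's methods, C57BL/6JCrl mice were fasted before an intraperitoneal injection of APAP in phosphate-buffered saline, and a single mouse liver was taken per time point for this assay. The labels do not name the strain, the sex or the animal of a section. That the sections of a time point share an animal is thus read from the methods alone. On that reading all p-values cover only the spread between sections of an animal, and animal and time cannot be told apart.

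APAP is metabolised by cytochrome P450 enzymes of hepatocytes around the central vein, and an overdose kills these hepatocytes first. Kupffer cells are the resident macrophages of the liver sinusoids. After necrosis, monocytes enter from the blood through the receptor CCR2, mature into macrophages in the injured area and clear dead cells. Stellate cells around the same area can turn into myofibroblasts that lay down collagen. Cd68 codes for a lysosomal membrane protein of macrophages, Lgals3 for galectin 3 and Gpnmb for a glycoprotein of macrophages that have taken up debris.

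The 3 genes of the rule are given as a description only, and they were left out of every count, list and test. In section A the last spot inside the top 10% held 5.55 UMIs of them per 10000 and the first one outside held 5.545, and in section B these values were 7.32 and 7.28. The median was 8.39 in rich and 0.424 in low spots of section A, and 9.39 and 1.23 in section B. All 3 genes had a UMI in 82.2% of the rich spots of section A and in 85.2% of those of section B. Low spots were not free of them, since Lgals3 had a UMI in 34.2% of low spots in section A and in 69.9% in section B. At 0 h the same rule picked spots with 62.0 to 74.5 UMIs per 1000000 for Cd68 and 0 to 0.301 UMIs per 1000000 for Gpnmb, against 249 and 284 for Cd68 and 185 and 166 for Gpnmb in the rich spots at 36 h. The 0 h spots so chosen had fewer UMIs than the low spots of their sections, with medians of 11960 to 15167 against 18012.5 to 25694.

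Depth was similar between the classes at 36 h, and the number of genes was not. Rich spots had a median of 14498 UMIs in section A and 17218 in section B, and low spots 15088 and 16481. Rich spots held a median of 4008 and 4244 detected genes, and low spots 3506 and 3505. Mitochondrial transcripts took a median of 1.49% of UMIs in rich and 1.72% in low spots of section A, and 2.92% and 4.46% in section B. The sums of the rich spots held 2992401 UMIs in section A and 3482104 in section B, and those of the low spots 15765505 and 16827117. Among the rich spots with at least 5000 UMIs, 74.2% in section A and 64.5% in section B kept their place in the top 10% after every spot was thinned to 5000 UMIs. All 11 sections listed the same 4992 barcodes, which are the printed positions of the array.

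Macrophage-rich spots lay near each other more often than their share of the tissue. Of the grid neighbours of rich spots, 27.0% were rich in section A and 21.8% in section B, and of the neighbours of low spots 4.97% and 5.74% were. They formed 84 connected patches in section A and 99 in section B, the largest with 15 and 8 spots. Single spots with no rich neighbour were 17.3% and 23.6% of the class. The sections differed at the tissue edge, where 10.7% of rich spots lay in section A and 2.46% in section B, against 9.49% and 9.43% of all spots. These values are a description of the class, with no test. The tissue images were not used here, so whether a spot lay on necrotic tissue was not examined.

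**Figure D1:**
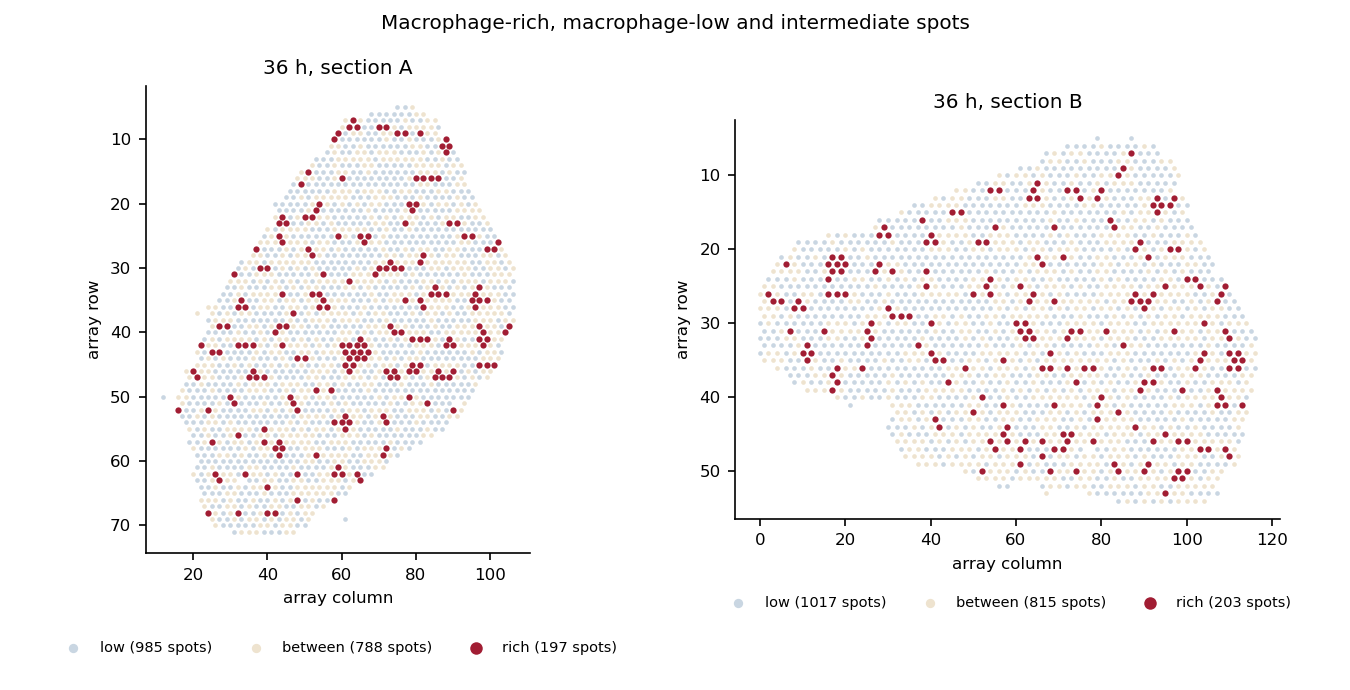
Passing spots of the sections at 36 h by array row and column (no unit), with macrophage-rich spots in red, macrophage-low spots in blue and the spots between them in beige. The 197 rich spots of section A and the 203 of section B are scattered over the tissue in 84 and 99 patches, the largest of 15 and 8 spots.

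To ask which transcripts accompany the macrophage signal, UMIs were summed per section and class and the classes were compared within sections. Of 13778 genes tested, 5017 (36.4%) differed between rich and low spots at 36 h at an adjusted p under 0.05, with 2258 (16.4%) higher and 2759 (20%) lower in rich spots. At least 2-fold differences were called for 1155 genes (8.38%) that were higher and 755 (5.48%) that were lower. Over all 13778 genes tested, 10467 had the same direction in both sections. Calls were made on these same sections, so agreement among the called genes is partly built in and is not a replication. The direction was the same in both sections for 4992 of the 5017, and 3310 genes were called without section A, 3456 without section B and 2074 when section was not a block of the model. The split depends on the scaling: TMM factors (trimmed mean of M values) put the median of all genes at -0.03 on the log2 scale, and scaling by total UMIs put it at 0.44, with 7052 genes called and 86% of them higher. Folds are therefore relative to the median gene, and levels are given as CPM, UMIs per 1000000 of the TMM-scaled sum.

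The largest of the named rises was that of Ccl7. This gene, which codes for a chemokine that draws CCR2-bearing monocytes, stood at 83.7 CPM in rich and 6.43 in low spots of section A, and at 33.2 and 4.84 CPM in section B. Its log2 fold change was 3.31 ± 0.22 (SE, adjusted p = 2.9e-08), with 2 sections at 36 h. Each SE given here and below comes from the model fitted to all injured sections. It is not the spread of the sections at 36 h alone. The log2 ratios of Ccl7 at 36 h were 3.696 in section A and 2.775 in section B. Ccr2 itself, the receptor of that ligand, stood at 20.6 against 2.25 CPM in section A and at 25.3 against 4.31 in section B, and rose by 2.81 ± 0.20 (adjusted p = 6.3e-11). Both rich sums lay above both low sums for each of these genes. C5ar1 and C3ar1, the receptors of the complement fragments C5a and C3a, rose by 2.70 and 2.64.

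The other named rises coded for proteins of several kinds. S100a4, a calcium-binding protein of motile cells, reached 53.4 CPM in rich spots of section A and 156 in section B, over 5.9 and 24.4 in low spots (log2 fold change 2.85 ± 0.15, adjusted p = 4.1e-11). Adam8, a membrane metalloproteinase of leukocytes, stood at 26.2 against 2.19 CPM in section A and at 76.9 against 10.6 in section B, and rose by 3.06 ± 0.18. Chil3, a chitinase-like protein of monocytes and neutrophils, stood at 41.7 against 3.51 CPM and at 157 against 34.1, and rose by 2.60 ± 0.29 (adjusted p = 0.00035). For S100a4, Adam8 and Chil3 the levels in both classes were higher in section B than in section A. Lat2 (2.71), an adaptor of immune receptors, Lilr4b (2.69), a receptor of myeloid cells with close relatives in the genome, Capg (2.57), an actin-capping protein of macrophages, and Slc37a2 (2.62), a sugar phosphate transporter, rose too. The others of the 15 were Emilin2 (2.61), a matrix glycoprotein, Tnc (2.57), the wound matrix protein tenascin C, Pf4 (2.58), a chemokine of platelets that macrophages also carry, and Basp1 (2.56).

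The share of spots with a UMI followed the levels. Ccl7 was seen in 64.5% of rich and 9.04% of low spots of section A, and in 43.8% and 6.69% of section B. After thinning of every spot to 5000 UMIs these shares were 44.2% and 2.82% in section A and 15.5% and 2.2% in section B. S100a4 was seen in 26.3% and 3.34% of the thinned spots of section A and in 50.5% and 10.1% of those of section B. No single named rise was present in every rich spot. In contrast, a UMI of Alb, the hepatocyte transcript for albumin, was present in 100% of rich and low spots of both sections, also after thinning.

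The largest of the named falls was that of Etnppl. This gene, whose enzyme breaks down phosphoethanolamine, stood at 24.2 CPM in rich and 97.1 in low spots of section A, and at 60.3 and 219 CPM in section B (log2 fold change -1.92 ± 0.12, adjusted p = 7.6e-12). Pck1, the rate-limiting enzyme of gluconeogenesis, stood at 226 against 989 CPM and at 651 against 1816. Sds, which degrades serine, stood at 120 against 426 CPM and at 633 against 1946. The other named falls were Hsd17b6 (-1.87), Aldh1b1 (-1.85), Dhtkd1 (-1.75), Hsd17b13 (-1.69), Hykk (-1.68), Upp2 (-1.66) and the unnamed transcript Gm48633 (-1.66). Each of the 10 was lower in rich than in low spots within both sections, which the rule for naming genes required. Etnppl, Aldh1b1, Pck1, Sds and Hsd17b13 belong to the periportal list described further on. In bulk sums of this kind, fewer cells of a type and less RNA per cell cannot be told apart.

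**Figure D2:**
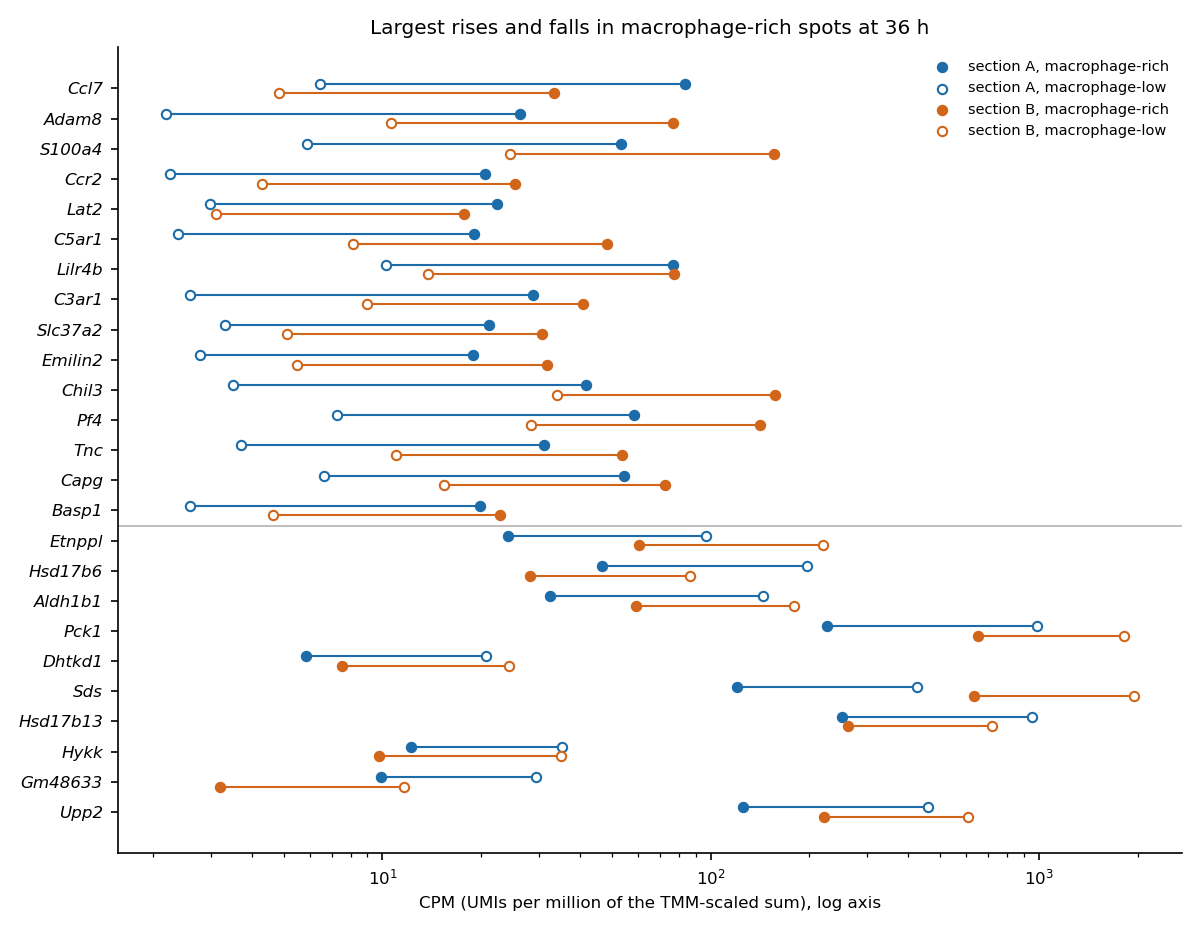
Level of the 15 largest rises and 10 largest falls in macrophage-rich (filled) and macrophage-low (open) spots of section A (blue) and section B (orange), in CPM on a log axis, each point 1 sum. The rule for naming genes required filled points to lie to the right of open points for every rise and to the left for every fall, as for Ccl7 (83.7 against 6.43 CPM in section A).

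Promoters of the named rises, the named falls and Anxa2 (annexin A2) are shown where they held the letters of PU.1 or AP-1. The windows run from 250 bases before to 50 after the start site, from RefSeq on GRCm38.p6, and were found for 13 of the 15 rises and 8 of the 10 falls. The motifs were chosen with these genes already known, and both strands were searched for GAGGAAGT (PU.1, the myeloid lineage factor), TGANTCA (AP-1, the Fos and Jun dimer), CACGTG (an E-box) and CAAAGTCCA (HNF4A, a hepatocyte factor). Capitals mark the motif in the strand of the gene, and the PU.1 match reads as the reverse complement in S100a4, Pf4 and Hsd17b6. S100a4 (chr3:90603520-90603819, plus strand) and Pf4 (chr5:90772185-90772484, plus strand) held the PU.1 letters, and C3ar1 (chr6:122856108-122856407, minus strand) and Slc37a2 (chr9:37255689-37255988, minus strand) held the AP-1 letters. Of the falls, Hsd17b6 (chr10:128007562-128007861, minus strand) and Upp2 (chr2:58567084-58567383, plus strand) held the PU.1 letters, and Anxa2 (chr9:69453433-69453732, plus strand) held the AP-1 letters.
S100a4: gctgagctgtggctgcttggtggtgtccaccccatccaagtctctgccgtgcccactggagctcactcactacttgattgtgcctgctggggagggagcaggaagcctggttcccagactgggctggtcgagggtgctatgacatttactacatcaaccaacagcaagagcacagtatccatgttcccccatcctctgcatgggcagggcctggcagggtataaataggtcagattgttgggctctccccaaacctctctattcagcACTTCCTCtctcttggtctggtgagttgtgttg
Pf4: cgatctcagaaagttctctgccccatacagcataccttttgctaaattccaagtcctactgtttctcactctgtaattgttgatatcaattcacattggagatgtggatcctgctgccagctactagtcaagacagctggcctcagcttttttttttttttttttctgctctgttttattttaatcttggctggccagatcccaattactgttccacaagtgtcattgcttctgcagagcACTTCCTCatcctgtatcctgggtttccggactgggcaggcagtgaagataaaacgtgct
C3ar1: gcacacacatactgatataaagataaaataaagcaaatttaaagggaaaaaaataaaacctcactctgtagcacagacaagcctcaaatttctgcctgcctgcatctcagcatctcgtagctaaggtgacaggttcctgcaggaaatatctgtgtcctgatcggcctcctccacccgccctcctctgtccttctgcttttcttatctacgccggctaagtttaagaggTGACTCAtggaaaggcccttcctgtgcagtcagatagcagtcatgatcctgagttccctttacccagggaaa
Slc37a2: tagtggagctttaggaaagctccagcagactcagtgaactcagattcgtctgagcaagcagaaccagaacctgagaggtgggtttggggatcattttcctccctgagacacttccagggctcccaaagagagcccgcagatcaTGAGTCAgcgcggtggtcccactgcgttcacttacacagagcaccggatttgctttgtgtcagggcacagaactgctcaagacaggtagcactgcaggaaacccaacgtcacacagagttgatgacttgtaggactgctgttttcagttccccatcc
Hsd17b6: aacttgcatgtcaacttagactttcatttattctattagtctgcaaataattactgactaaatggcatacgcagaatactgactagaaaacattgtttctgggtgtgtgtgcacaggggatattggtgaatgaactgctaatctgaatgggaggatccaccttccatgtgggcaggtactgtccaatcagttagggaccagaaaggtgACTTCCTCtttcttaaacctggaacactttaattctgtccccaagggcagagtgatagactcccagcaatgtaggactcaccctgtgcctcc
Upp2: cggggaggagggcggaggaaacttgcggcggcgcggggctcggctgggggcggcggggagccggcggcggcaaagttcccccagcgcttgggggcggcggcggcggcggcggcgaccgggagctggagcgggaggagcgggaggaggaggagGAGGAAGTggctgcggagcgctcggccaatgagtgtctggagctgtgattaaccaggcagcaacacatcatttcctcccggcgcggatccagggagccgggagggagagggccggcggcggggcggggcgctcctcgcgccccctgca
Anxa2: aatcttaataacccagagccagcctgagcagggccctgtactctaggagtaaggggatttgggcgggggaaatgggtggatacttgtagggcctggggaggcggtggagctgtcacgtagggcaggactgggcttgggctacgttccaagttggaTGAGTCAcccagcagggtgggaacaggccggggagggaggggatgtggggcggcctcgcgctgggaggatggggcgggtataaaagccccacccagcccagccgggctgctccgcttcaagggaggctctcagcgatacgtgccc
PU.1 letters were present in 2 of 13 rises, in 2 of 8 falls and in 3.2% of 32851 promoters. AP-1 letters were present in 2 of 13 rises, in 0 of 8 falls and in 7.81% of all promoters. The E-box was found in 0 of 13 rises, in 1 of 8 falls (Dhtkd1) and in 7.15% of promoters, and the HNF4A letters in 0 of 13, in 0 of 8 and in 0.475%.  A match describes the letters of the window and is neither a site nor a cause.

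Gene lists then set the cell types and programmes of the rich spots side by side. Because the spots were chosen by transcripts of macrophages, the other macrophage genes are not independent of that choice, and their counts describe the class. In each case the number called in either direction and the median log2 fold change are given, to be read against 16.4% of all genes called higher, 20% called lower and a median of -0.03. Named members are the 4 of highest level in a list, and any other member was chosen after its values were seen.

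Macrophage lists differed in how many of their members rose. All 11 recruited monocyte markers tested rose, with a median of 2.60 and a range from 1.06 (Plac8) to 2.85 (S100a4). Of 14 shared macrophage markers 13 rose, with a median of 1.22. Among them Lyz2, the lysozyme of myeloid cells, stood at 696 against 114 CPM in section A and at 694 against 159 in section B (2.37 ± 0.16). C1qb, a chain of complement C1q that Kupffer cells also make, rose by 1.16, and Tyrobp and Fcer1g, the signal adaptors of myeloid receptors, rose by 1.66 and 1.90. Of the 8 Kupffer cell markers 4 rose and the median was 0.40. Marco, a scavenger receptor, stood at 289 against 105 CPM and at 321 against 188 (1.11 ± 0.17), and Cd5l, a secreted macrophage protein, rose by 0.78. Clec4f, the lectin that defines mouse Kupffer cells, was at 86.0 CPM in rich and 97.7 in low spots of section A and at 136 and 105 in section B (log2 fold change 0.11 ± 0.12, adjusted p = 0.52). Fcna, another Kupffer cell lectin, was at 79.6 against 85.8 CPM and at 87.4 against 82.0 (adjusted p = 0.97). After thinning of every spot to 5000 UMIs, Clec4f was seen in 46.3% of rich and 34.3% of low spots of section A. In section B these shares were 54.5% and 35.4%. The Kupffer count was 5 without section A and 2 without section B, and 8 under scaling by total UMIs.

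Genes of lipid-laden macrophages accompanied them. Of 14 lipid-associated genes tested 12 rose, with a median of 1.48. Lpl, lipoprotein lipase, stood at 116 against 17.9 CPM in section A and at 150 against 31.1 in section B (2.46 ± 0.12, adjusted p = 7.3e-14). Cd63, a tetraspanin of late endosomes, rose by 1.35. Spp1 (osteopontin) rose by less, from 83.3 to 116 CPM and from 148 to 210 (0.49 ± 0.16, adjusted p = 0.024), and was no longer called when either section was left out. Fabp5, a fatty acid carrier, was uneven between sections, at 268 against 253 CPM and at 165 against 81.5 (adjusted p = 0.35). Trem2, the lipid receptor of such macrophages, was chosen after its values were seen and stood at 51.6 against 6.83 CPM and at 80.1 against 17.8 (2.47 ± 0.16).

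Markers of other leukocytes were higher in part. All 8 neutrophil markers tested rose, with a median of 1.93, and S100a8, a subunit of calprotectin, stood at 24.9 against 5.44 CPM in section A and at 74.9 against 18 in section B (2.10 ± 0.23). Their summed level was 92.9 UMIs per 1000000 in rich and 16.6 in low spots of section A, and 206 and 38.4 in section B. The count fell to 6 without section A and to 4 without section B, and Il1r2 rested on section B alone, at 0.254 against 0.265 CPM in section A and 8.65 against 2.58 in section B. The granule genes Ngp, Ltf and Camp and the marker Ly6g were too low to be tested. Of 11 genes of dendritic cells and major histocompatibility complex class II 7 rose, with a median of 1.15, and Cd74, the invariant chain, stood at 179 against 37.3 CPM and at 157 against 66.1 (1.74 ± 0.20). Of 13 lymphocyte markers 3 rose (Ighm, Cd79b and Trac; 2 without section A, 1 without section B), and their summed level was 40.1 against 16.7 UMIs per 1000000 in section A and 23.8 against 6.60 in section B. The defining T cell gene Cd3e was too low to be tested.

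**Figure D3:**
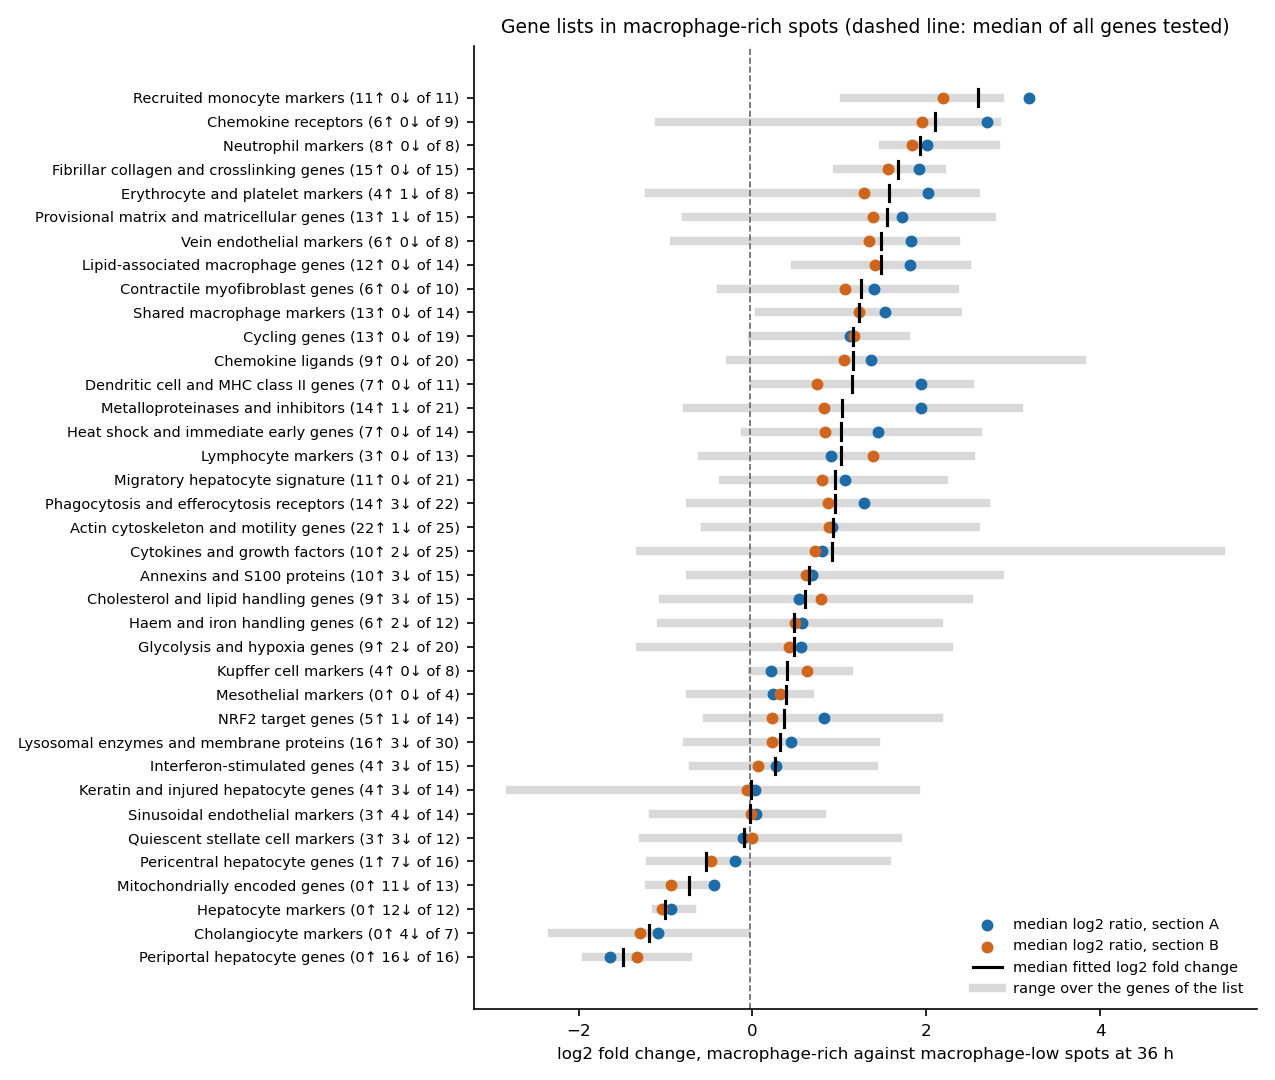
Log2 fold change of macrophage-rich against macrophage-low spots at 36 h for 37 gene lists, with the median fitted value (bar), its range over the list (grey) and the median log2 ratio of section A (blue) and section B (orange). Counts called higher and lower stand beside each name, from recruited monocyte markers (11 of 11 higher, median 2.60) to periportal hepatocyte genes (16 of 16 lower, median -1.49).

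Hepatocyte transcripts were lower in rich spots, and the lobular zones differed. All 12 general hepatocyte markers fell, with a median of -1.0, and Alb stood at 28960 against 63030 CPM in section A and at 36460 against 78480 in section B. All 16 periportal genes, which code for urea synthesis, amino acid breakdown and gluconeogenesis around the portal tract, fell, with a median of -1.49. Cps1, the first enzyme of the urea cycle, stood at 730 against 1849 CPM and at 962 against 2336 (-1.31 ± 0.10, adjusted p = 2.4e-10). Arg1, its last enzyme, fell by 1.18 on the log2 scale, Ass1 by 1.32 and Uox, urate oxidase, by 1.20. Of 16 pericentral genes, the drug-metabolising set around the central vein, 7 fell and 1 rose, with a median of -0.53, and under scaling by total UMIs 2 fell and 5 rose, with a median of -0.06. Cyp2e1, an enzyme that activates APAP, stood at 513 against 670 CPM and at 408 against 710 (-0.59 ± 0.17), and Cyp3a11 at 239 against 481 and at 69.0 against 135 (-0.99 ± 0.11). Glul, glutamine synthetase of the innermost hepatocytes, was chosen after its values were seen and was at 24.7 against 23.9 CPM and at 46.7 against 42.5 (adjusted p = 0.61). The fall of Cyp2e1 was not called under total UMIs or without section B.

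Genes encoded by the mitochondrial genome, which hepatocytes carry in large amount, were also lower. Of 13 tested 11 fell, with a median of -0.73 that was -0.44 in section A and -0.93 in section B, and under scaling by total UMIs 6 fell. mt-Co1, a subunit of cytochrome c oxidase, stood at 1980 against 3440 CPM and at 4567 against 8931. Both classes of section B lay above those of section A for this gene.

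Collagen genes were higher throughout. All 15 tested genes of the list named for fibrillar collagens and crosslinking rose, with a median of 1.68. This list, called collagen genes here and below, also holds chains of collagens IV and VI and the matrix genes Lum, Fbn1 and Postn. Col1a2, a chain of collagen I, stood at 113 against 21.7 CPM in section A and at 260 against 70.7 in section B (2.10 ± 0.13, adjusted p = 6.6e-11). Col3a1 stood at 106 against 35.4 CPM and at 230 against 82.2 (1.53 ± 0.12). The basement membrane chains Col4a1 and Col4a2 rose by 1.05 and 1.03. Of 10 genes of contractile myofibroblasts 6 rose, with a median of 1.25, and Acta2, smooth muscle actin, stood at 70.2 against 10.3 CPM and at 179 against 43.1 (2.33 ± 0.22, adjusted p = 3.3e-05). Quiescent stellate cell markers did not share that pattern. Of 12, 3 rose and 3 fell with a median of -0.09, which turned to 0.39 under scaling by total UMIs, with 7 higher and 1 lower. Ecm1 was at 153 against 154 CPM and at 228 against 220, and Dcn (decorin) at 82.7 against 96.1 and at 121 against 182 (adjusted p = 0.064). Members of this list chosen after their values were seen moved apart, since Des (desmin) rose by 1.67 while Colec11, a secreted lectin, fell by 1.26 on the log2 scale.

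Endothelial lists were split in the same way. Of 14 sinusoidal endothelial markers 3 rose and 4 fell, with a median of -0.03 that became 0.45 under scaling by total UMIs, with 8 higher and 1 lower. Stab1, a scavenger receptor that macrophages share, stood at 102 against 60.5 CPM and at 167 against 95.9 (0.78 ± 0.11), and Clec4g, a sinusoidal lectin, at 31.0 against 64.0 and at 24.6 against 58.5 (-1.15 ± 0.15). Of 8 vein endothelial markers 6 rose, with a median of 1.48 and a range from -0.90 to 2.35. Thbd and Kit rose by 1.49 and 1.32, while Vwf was called in neither direction (0.28, adjusted p = 0.48). Rspo3, the R-spondin that central vein endothelium supplies to amplify Wnt signals, stood at 6.36 against 1.39 CPM and at 7.74 against 3.58 (1.51 ± 0.29, adjusted p = 0.00014). The Wnt ligands Wnt2 and Wnt9b, chosen after their values were seen, rose by 1.46 and 2.35, at mean levels below that of Rspo3. Axin2 and Lgr5, Wnt target genes of the pericentral list, were at 0.509 against 0.530 and 1.27 against 0.265 CPM in section A. In section B they were at 0.910 against 1.26 and 0.910 against 0.464, and over both sections their adjusted p was 0.72 and 0.087. These levels are near the limit of detection, so the missing calls do not set the targets apart from the ligands. The sums of the vein markers were 51.8 against 13.4 UMIs per 1000000 in section A and 108 against 35.2 in section B.

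Cholangiocyte markers were near the limit of detection and lower. Of 7 tested 4 fell, with a median of -1.19, but their summed level was 38.4 against 62.7 UMIs per 1000000 in section A and 40.8 against 48.6 in section B, and 1 remained called without section A and 2 without section B. Krt19, the keratin that defines bile ducts, was at 1.27 against 0.663 CPM in section A and 1.37 against 3.58 in section B. Of 4 mesothelial markers 0 were called by edgeR, with unadjusted p under 0.05 for 0 and 0 called by DESeq2. The haemoglobin genes Hba-a1, Hba-a2 and Hbb-bs, whose near-identical copies share reads, rose, at 341 against 89.6 CPM and 904 against 328 for Hbb-bs, and none of them was called when either section was left out. Summed erythrocyte and platelet markers held 1116 against 228 UMIs per 1000000 in section A and 2618 against 662 in section B. The part of blood in the rise of leukocyte genes was not tested.

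Genes of uptake and digestion rose in part. Of 30 lysosomal genes 16 rose and 3 fell, with a median of 0.32, and under scaling by total UMIs 28 rose and 1 fell. Psap, the precursor of the saposins, stood at 1380 against 462 CPM in section A and at 1291 against 630 in section B (1.31 ± 0.12). The cathepsins Ctsb and Ctsd rose by 1.0 and 1.03, while Ctsl was called in neither direction (-0.21, adjusted p = 0.12). Their summed level was 11435 against 5501 UMIs per 1000000 in section A and 11996 against 6599 in section B. Of 22 receptors of phagocytosis and efferocytosis 14 rose and 3 fell, with a median of 0.95. Cd36, a scavenger receptor for oxidised lipid, rose by 1.52, while Scarb1, the receptor for high-density lipoprotein, fell by 0.72 on the log2 scale, and Lrp1 fell by 0.32, but was at 0.16 under total UMIs and was not called without section A. Axl, a receptor for dying cells, was chosen after its values were seen and stood at 52.1 against 19.9 CPM and at 89.5 against 39.3 (1.27 ± 0.11), and its relative Mertk at 6.36 against 5.97 and at 12.8 against 6.63 (adjusted p = 0.053).

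Lipid and iron genes moved in both directions. Of 15 genes of cholesterol and lipid handling 9 rose and 3 fell. Plin2, the coat of lipid droplets, stood at 410 against 282 CPM and at 347 against 216 (0.61 ± 0.18, adjusted p = 0.019), but was not called when either section was left out. Apoe and Cyp27a1, both abundant in hepatocytes, fell by 0.73 and 1.03 on the log2 scale. Of 12 genes of haem and iron handling 6 rose and 2 fell. Fth1 and Ftl1, the ferritin chains, rose by 0.62 and 0.64, and Hpx (hemopexin) and Hamp (hepcidin), both secreted by hepatocytes, fell by 1.05 and 1.0. Hmox1, which opens the haem ring, was chosen after its values were seen and stood at 69.2 against 18.5 CPM and at 122 against 23.7 (2.15 ± 0.17).

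Signals of recruitment were not uniform within their families. Of 20 chemokine ligands 9 rose, with a median of 1.16. Ccl2 stood at 72.7 against 7.62 CPM in section A and at 66.5 against 18.6 in section B (2.46 ± 0.32, adjusted p = 0.0012) and Ccl6 rose by 2.40. By contrast Ccl9 was at 135 against 162 CPM and at 176 against 137 (adjusted p = 0.88), and Cxcl12 at 99.2 against 160 and at 170 against 146 (adjusted p = 0.41), so that each pointed in opposite directions in the sections. Of 9 chemokine receptors 6 rose, with a median of 2.10, among them Ccr1 (2.49) and Cx3cr1 (2.10). Of 25 cytokines and growth factors 10 rose and 2 fell, of which 3 rises remained without section A and 5 without section B. Csf1, the growth factor of macrophages, rose by 1.23, and Tgfb1, which drives matrix production, by 1.46, from 12.2 to 35.6 CPM in section A and from 19.2 to 50.3 in section B. Igf1 and Vegfa, both made by hepatocytes, fell by 0.99 and 1.29 on the log2 scale.

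Matrix turnover and cell motility genes rose broadly. Of 21 metalloproteinases and inhibitors 14 rose and 1 fell, and Mmp12, the elastase of macrophages, stood at 119 against 13.8 CPM in section A and at 69.0 against 23.4 in section B (2.32 ± 0.37, adjusted p = 0.0044). The inhibitor Timp1 rose by 2.02, while Mmp19 fell by 0.75 and was not called under total UMIs. Of 15 genes of provisional and matricellular matrix 13 rose, including Sparc (0.85), Lgals1 (1.54) and Vim (2.02), and Fn1, the fibronectin that hepatocytes also secrete, fell by 0.77 on the log2 scale. Of 25 actin and motility genes 22 rose and 1 fell, with Tmsb4x, thymosin beta 4, at 1262 against 366 CPM and at 2458 against 763 (1.74 ± 0.14), Actg1 (1.37), Cfl1 (0.95) and Actb (0.92).

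Anxa2, which marks migratory hepatocytes in the study, stood at 195 CPM in rich and 44.1 in low spots of section A, and at 336 and 146 in section B (1.64 ± 0.21, adjusted p = 0.00022). It had a UMI in 90.4% of rich and 44.3% of low spots of section A and in 99.0% and 80.8% of section B. Of 15 annexins and S100 proteins 10 rose and 3 fell, with a median of 0.65, S100a6 and S100a10 among the rises (1.86 and 0.65) and S100a1 among the falls (-0.72). Of 21 listed genes of the study's migratory hepatocyte signature, which was defined on human nuclei and is only in part included here, 11 rose, with a median of 0.95 that was 1.07 in section A and 0.80 in section B. Tpm1 and Itgav, a tropomyosin and an integrin chain, rose by 0.79 and 0.90, and Ndrg1 was called in neither direction (0.95, adjusted p = 0.058). Macrophages and stellate cells carry Anxa2, Itgav and Tpm1 too, and which cells of a spot contributed them was not tested. Genes of injured hepatocytes split, with 4 of 14 higher and 3 lower and a median of -0.02, or 0.46 with 7 higher and 2 lower under total UMIs, and with 1 higher and 1 lower without section A. Krt18 stood at 904 against 506 CPM and at 1029 against 693 (0.70 ± 0.22, adjusted p = 0.043, not called when either section was left out) and Krt8 at 892 against 479 and at 1106 against 800 (adjusted p = 0.068).

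Stress programmes rose in part, and 2 of their genes, Mt1 and Mt2, changed direction between the sections. Of 14 NRF2 target genes, the antioxidant response, 5 rose and 1 fell, with a median of 0.82 in section A and 0.23 in section B, and 3 rose without section A. Mt1, a metallothionein, stood at 2330 CPM in rich and 1113 in low spots of section A, but at 9672 and 15090 in section B, and Mt2 at 310 and 149 against 2283 and 3095. Each metallothionein was thus higher in rich spots of section A and lower in those of section B (adjusted p = 0.82 and 0.72). Gsta1, which has close relatives, stood at 383 against 106 CPM and at 333 against 205 (adjusted p = 0.056). Of 14 heat shock and immediate early genes 7 rose, and 3 did so without section A. Klf6 rose by 1.29, and Hspb1 was at 124 against 47.7 CPM and at 49.6 against 29.4 (adjusted p = 0.17). Of 15 interferon-stimulated genes 4 rose and 3 fell, which became 11 and 0 under total UMIs and 2 and 1 without either section. Of 20 genes of glycolysis and hypoxia 9 rose and 2 fell, while the abundant Gapdh, Ldha, Tpi1 and Pgk1 were called in neither direction (-0.11, -0.23, -0.23 and -0.19).

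Cycling genes were higher in rich spots. Of 19 tested 13 rose, with a median of 1.16 that was 1.12 in section A and 1.17 in section B, and 8 remained called without section B. Pcna, the sliding clamp of DNA replication, stood at 43.7 against 26.2 CPM in section A and at 61.7 against 32.6 in section B (0.83 ± 0.11, adjusted p = 1.4e-06). Mcm6, a subunit of the replicative helicase, rose by 1.22 and Stmn1 by 1.16, while Ccnd1, cyclin D1, was at 37.9 against 18.8 CPM and at 43.2 against 24.9 (adjusted p = 0.11). Which cells of the spots were cycling was not tested.

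Levels were then followed away from the rich spots, over grid steps to the nearest of them. Since the steps are counted from spots that the rule chose, these values are a description with no test. Recruited monocyte markers held 263 UMIs per 1000000 in the rich spots of section A, 67.2 at 1 step, 39.5 at 2 and 43.2 at 3, and in section B 628, 239, 129 and 120. Collagen genes dropped over the same distance, from 894 to 337, 217 and 225 in section A and from 1904 to 857, 529 and 548 in section B. The level at 1 step was thus between that of rich spots and that at 2 steps. At 4 or more steps section A held 38.3 for monocyte markers and 256 for collagen genes, and section B, where the values were again above those at 3 steps, held 172 and 636. Kupffer cell markers reached the level of farther spots within 1 step in section A, from 1048 to 469 and 497, and over 2 steps in section B, from 1195 to 766 and 615.

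Hepatocyte zones ran in different courses. Periportal genes held 5619 UMIs per 1000000 in the rich spots of section A, 8776 at 1 step and 11686 at 2, and 7996, 11357 and 14059 in section B. Pericentral genes were highest in the ring of spots next to the rich ones, at 3877 against 3077 in the rich spots and 2878 at 2 steps in section A, and at 1983 against 1624 and 1761 in section B. In section B the 128 spots at 4 or more steps held still more, at 2166. NRF2 target genes stepped down in section A, from 7457 to 5572 and 3397, and were level in section B, at 17612, 18384 and 17845.

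**Figure D4:**
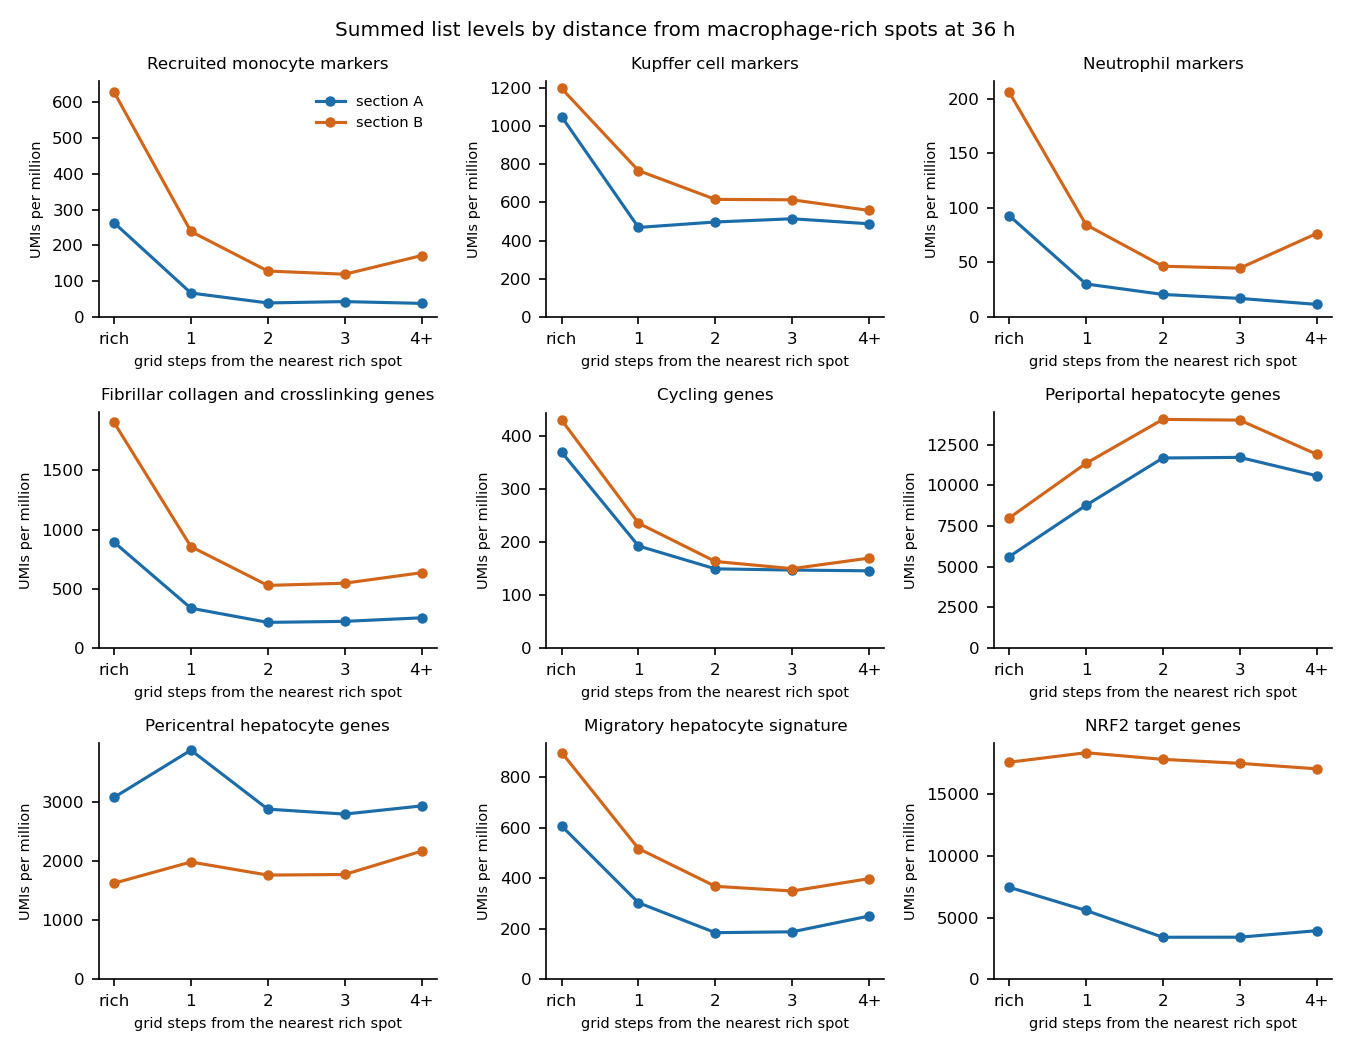
Summed level of 9 gene lists, in UMIs per 1000000, in macrophage-rich spots and at 1, 2, 3 and 4 or more grid steps from the nearest of them, for section A (blue) and section B (orange), each point the sum over all spots of a step. Recruited monocyte markers drop from 263 to 67.2 within 1 step in section A, periportal genes climb, and pericentral genes are higher at 1 step than in the rich spots or at 2 steps.

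Rich spots differed among themselves with the number of rich neighbours. In section A 34 had none, 129 had 1 or 2 and 34 had 3 or more, and in section B 48, 129 and 26. Over these classes collagen genes went from 724 to 887 and 1110 UMIs per 1000000 in section A and from 1583 to 1905 and 2463 in section B. Recruited monocyte markers went from 212 to 261 and 329, and from 497 to 612 and 938. Kupffer cell markers went from 978 to 1043 and 1146 in section A, but were 1207, 1238 and 964 in section B. The score of the rule climbed as well, from 7.51 to 8.41 and 9.92 in section A and from 9.08 to 9.39 and 12.2 in section B, so that position and macrophage signal cannot be told apart here. Single rich spots still spread widely, since collagen UMIs per 10000 ran from 2.78 to 15.5 in section A and from 7.19 to 33.3 in section B, with the lowest 10% and the highest 10% of spots left aside.

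The same classes at 24 h and 48 h showed where the rich spots of 36 h stood apart. These comparisons share the 36 h sums and a common model. At 24 h 4927 genes (35.8%) and at 48 h 9612 (69.8%) differed between rich and low spots, with 4 sections at 48 h against 2 at the other times. The difference itself changed between 36 h and 48 h for 1423 genes (10.3%), larger at 36 h for 1018 (7.39%) and smaller for 405 (2.94%), and between 36 h and 24 h for 183 (1.33%), larger for 85 (0.617%) and smaller for 98 (0.711%). Larger here means a higher value of rich over low, so that a shallower fall counts as larger. The count against 24 h was 85 and 78 without section A or B of 36 h and 43 and 68 without section A or B of 24 h, and that against 48 h was 701 and 778 without section A or B of 36 h. Neither comparison gave a call when section was not a block of the model, with 904 and 545 genes at an unadjusted p under 0.05.

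More collagen genes were called different from 48 h than from 24 h, and fewer genes of other matrix lists were called different from 48 h. Of 15 provisional and matricellular matrix genes 4, and of 21 metalloproteinases and inhibitors 4, had a smaller value than at 48 h. Of 15 collagen genes 11 rose less at 36 h than at 48 h and 1 rose more than at 24 h. Against 24 h, 7 were larger and 1 smaller by edgeR at an unadjusted p under 0.05. By DESeq2 these counts were 6 and 0. The medians were 1.13, 1.68 and 2.27 at 24 h, 36 h and 48 h. With 2 sections at 24 h and 4 at 48 h, the counts of calls do not show that 36 h was nearer to 24 h. Col3a1 in rich spots was at 27.8 and 11.5 CPM in the sections of 24 h, over 22.3 and 13.6 in low spots. At 36 h it was at 106 and 230 over 35.4 and 82.2, and at 48 h at 507 to 1233 over 98.5 to 266. Its difference was 1.40 ± 0.20 larger than at 24 h (adjusted p = 0.0003) and 0.73 ± 0.14 smaller than at 48 h (adjusted p = 0.00096). Pcolce, which assists the processing of procollagen, and Spp1 took the same course, lower in rich spots at 24 h (-0.95 and -0.80) and higher at 36 h (0.36 and 0.49) and 48 h (1.0 and 1.58). Rcn3, Fstl1 and Timp2, whose products act in the secretory path or outside the cell, were below their 48 h value by 1.24, 1.15 and 1.14 on the log2 scale, and Fstl1 was at -0.72 and not called without section B of 36 h.

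Of 14 shared macrophage markers 12, and of 30 lysosomal genes 14, had a smaller value of rich over low at 36 h than at 48 h. The score that chose the spots also differed, with a median in rich spots of 5.33 and 6.21 UMIs per 10000 at 24 h, 8.39 and 9.39 at 36 h and 19.8 to 37.3 at 48 h, and 77.2% to 83.1% of rich spots were kept after thinning at 48 h. Its part in these differences was not tested. The shared markers had medians of 1.09, 1.22 and 1.77 at the 3 times. Recruited monocyte markers had medians of 2.82, 2.60 and 2.90, and 0 of 11 were called different from 48 h by edgeR or by DESeq2, with 2 and 1 at an unadjusted p under 0.05. This depended on how spots were ranked. By edgeR 2 were called smaller than at 48 h with spots thinned before ranking, and 3 with spots ranked by Cd68 alone. In each of these settings 6 were smaller at an unadjusted p under 0.05. Periportal genes were less deeply reduced at 36 h than at 48 h in 14 of 16 cases, with medians of -1.31, -1.49 and -2.20. Cycling genes had a median of 0.09 at 24 h, 1.16 at 36 h and 1.40 at 48 h, and 3 of 19 had a smaller value than at 48 h. Against 24 h 0 of 19 were called by edgeR or DESeq2, with 8 and 6 larger at an unadjusted p under 0.05. With spots ranked by Cd68 alone edgeR called 1 larger, and with thinned spots 0, with 9 and 5 larger at an unadjusted p under 0.05.

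The spots picked by the same rule in uninjured liver are given for reference. S100a4 was at 3.06 to 8.52 CPM in the 3 sections of 0 h, Trem2 at 0.679 to 1.55 and Acta2 at 2.38 to 8.52, each below both rich sums of 36 h. Clec4f was at 204 to 248 CPM and Cyp2e1 at 1838 to 2777, each above both rich sums of 36 h, but also above both low sums of 36 h (97.7 and 105 for Clec4f, 670 and 710 for Cyp2e1). These values lie across animals, the methods state a fast only for the mice given APAP, and no test was made. The TMM factors were 0.764 to 0.793 for the rich sums of 0 h and 1.31 and 1.26 for those of 36 h. The order of levels that lie near each other, as for Clec4f, can therefore depend on the scaling.

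Genes with the largest differences in time were of other kinds. Chka, choline kinase, was near level at 36 h (58.5 against 52.4 CPM and 49.2 against 42.4), and lower in rich spots at 48 h, at 38.3 to 85.2 CPM against 116 to 207 (difference 1.60 ± 0.13, adjusted p = 5.9e-08). Car3, a carbonic anhydrase of pericentral hepatocytes, was not called at 24 h (0.03), fell by 1.20 at 36 h and by 2.57 at 48 h on the log2 scale. Trib3, a stress-induced pseudokinase, rose at 24 h (0.83) and 36 h (0.97) and was at -0.44 at 48 h. Ggt6 fell less at 36 h than at 48 h, by 1.37. Slc30a10, a manganese exporter, had log2 ratios of -1.44 in section A and -0.24 in section B of 36 h, and its difference from 48 h was 1.29, or 2.08 without section A and 0.89 without section B. Of genes below their 48 h value, Noct, a clock-controlled phosphatase, fell at 36 h, at 10.7 against 19.5 CPM in section A and 29.6 against 64.3 in section B (-1.04), and was at 0.65 at 24 h and 0.74 at 48 h. Igfbp3 was at -1.32 in section A and -0.30 in section B of 36 h, and its difference from 48 h was -1.38, or -1.09 without section A and -2.14 without section B. The difference of Trib3 from 48 h (1.40) was 0.97 and not called without section A of 36 h.

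Against 24 h, the circadian factor Dbp stood out. It was at 42.2 CPM in rich and 75.3 in low spots of section A at 36 h and at 20.3 and 36.5 in section B. At 24 h it was at 7.09 over 3.38 and 6.84 over 1.65, a difference of -2.24 ± 0.45 (adjusted p = 0.029). At 48 h it was at 8.65 to 15.4 CPM in rich and 7.06 to 11.4 in low spots. The methods do not state the hour of day of injection or sampling. For Dbp and the clock-controlled Noct, hour of day and time after APAP therefore cannot be told apart. Tm4sf1, a membrane protein of endothelium and migrating cells, was at 60.4 and 91.4 CPM in rich spots at 24 h over 19.3 and 19.4, and at 15.5 and 19.6 over 19.0 and 24.3 at 36 h (difference -2.23 ± 0.20, adjusted p = 4.9e-07). Timp3, an inhibitor bound to matrix, took the same course, at 1.56 at 24 h and -0.15 at 36 h. At 36 h itself neither was called, and under scaling by total UMIs their values turned to 0.17 and 0.33. Tfdp1, a partner of E2F factors, and Nans, an enzyme of sialic acid synthesis, were lower in rich spots at 24 h (-0.60 and -0.33) and higher at 36 h (0.67 and 0.83). The transcript Gm45051 was level at 24 h (0.07) and lower at 36 h (-1.54). Differences from 24 h also depended on how spots were ranked. With Gpnmb alone, edgeR did not call those of Nans and Timp3 (adjusted p = 0.077 and 0.073). Those of Chka, Pcolce and Gm45051 were lost with thinned spots, and those of Chka, Car3, Noct, Dbp and Gm45051 with Cd68 alone. Those of Col3a1 and Tm4sf1 were called in each of these settings. Of the named differences from 24 h, those of Col3a1, Nans, Tm4sf1 and Timp3 were still called when any section of 24 h or 36 h was left out. Those of Dbp and Chka were lost without any of these 4 sections, and those of Car3, Gm45051, Noct, Pcolce, Spp1 and Tfdp1 without at least 1 of them.

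**Figure D5:**
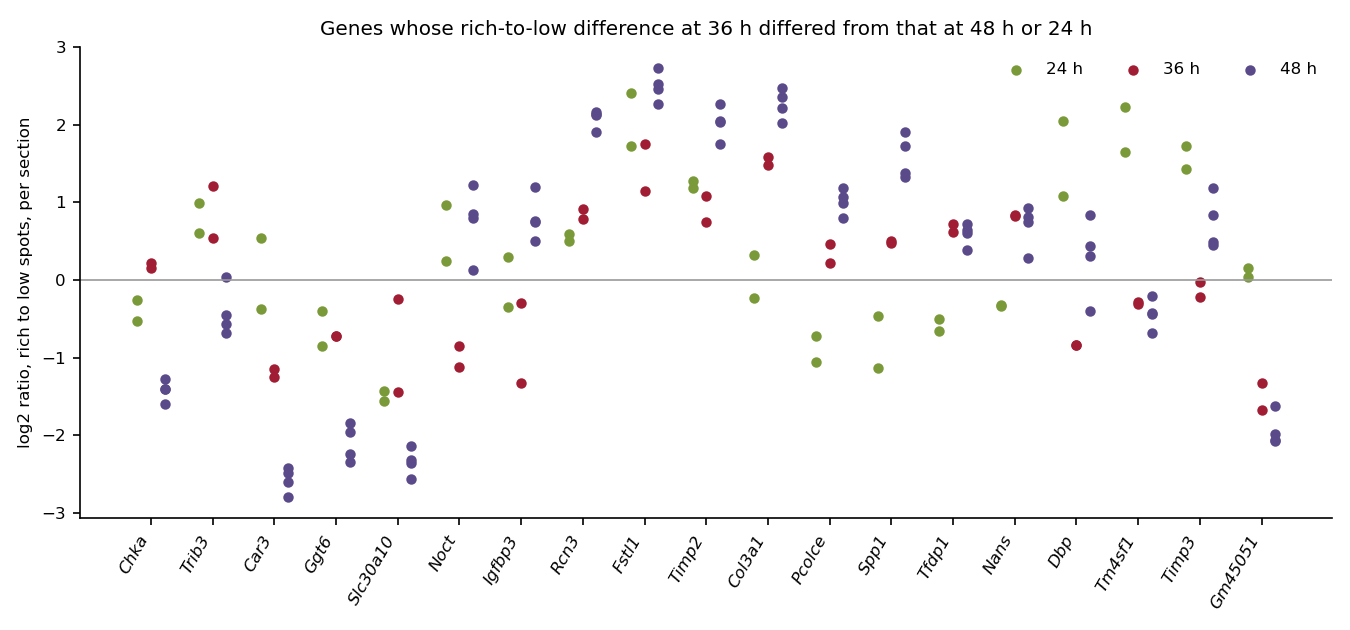
Log2 ratio of macrophage-rich to macrophage-low spots in each section at 24 h (green), 36 h (red) and 48 h (violet) for the genes named for a difference between times, each point 1 section. Chka lies near 0 at 36 h and below it in all 4 sections at 48 h, Noct and Dbp lie below 0 at 36 h, and Tm4sf1 and Timp3 lie above 0 at 24 h but not at 36 h.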

How the data were processed

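Spatial gene expression (Visium) was measured in 11 sections of snap-frozen mouse liver. The authors deposited raw UMI counts of 31053 genes at 4992 array positions per section, made with Space Ranger 1.0.0 on mm10. Their notes also name Seurat 4.1.1, and their manual removal of isolated spots was not repeated. Spots in tissue were kept if they had 800 or more genes and no more than 20% of UMIs from the mitochondrial genome. Macrophage-rich and macrophage-low spots were defined per section (top 10% and bottom 50%), their UMIs were summed, and edgeR 4.0.16 (R 4.3.3, limma 3.58.1) fitted a robust quasi-likelihood model to the 8 injured sections with section as block, 1 class term per time and TMM scaling, after filterByExpr. This left 5 residual degrees of freedom, and the common biological coefficient of variation was 0.074. P-values were adjusted by the Benjamini-Hochberg method over 13778 genes without the 3 genes of the rule, and calls are at an adjusted p under 0.05. They cover only the spread between sections, which may be technical. Spots were handled with Python 3.11.15, numpy 2.4.6 and pandas 2.3.3, and the model was tested on simulated data.

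The class, the 37 gene lists and the tests were chosen with earlier results of these data known. Of 533 listed genes 531 were matched and 21 were too low to be tested. Genes were named by rule: the 15 largest rises and 10 largest falls with at least 20 CPM in the higher class and the same direction in both sections, the 5 largest differences each way against 24 h and 48 h, the 4 members of highest mean level in each list, and Anxa2. Alternatives were total UMIs, median-of-ratios factors, no filter, DESeq2 1.42.0, no block, all 11 sections, the 36 h sections alone, the top 5% or 20% of spots, all other spots as reference, thinning to 5000 UMIs before ranking, each rule gene alone, and each section left out. Counting error sets the precision of low values, and sums held 2992401 to 16827117 UMIs at 36 h.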

Additional observations from a re-analysis of the deposited data

Results flagged for a closer look

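The difference between macrophage-rich and macrophage-low spots was itself different between 36 h and 48 h for 1423 genes and between 36 h and 24 h for 183 genes by the edgeR test, and the named genes among them are given here as 36 h minus the other time on the log2 scale. Against 48 h the named falls were shallower, by 0.72 for Etnppl, 0.67 for Hsd17b6, 0.65 for Aldh1b1, 1.11 for Pck1, 0.89 for Sds, 0.62 for Hsd17b13, 1.17 for Gm48633 and 0.70 for Upp2. Chka (1.60), Trib3 (1.40), Car3 (1.37), Ggt6 (1.37) and Slc30a10 (1.29) also stood above their 48 h value. Noct (-1.78), Igfbp3 (-1.38), Rcn3 (-1.24), Spp1 (-1.10), Fstl1 (-1.15), Timp2 (-1.14), Dbp (-1.13), Timp3 (-0.92), Col3a1 (-0.73) and Pcolce (-0.65) stood below it.

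Against 24 h the difference was higher for Col3a1 (1.40), Pcolce (1.31), Spp1 (1.29), Tfdp1 (1.27), Nans (1.16) and Chka (0.58). It was lower for Dbp (-2.24), Tm4sf1 (-2.23), Timp3 (-1.72), Noct (-1.68), Gm45051 (-1.62) and Car3 (-1.22). Animal and time cannot be told apart in these values.

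Among the 4 sections at 48 h, section C lay apart from the others for Sds, with a log2 ratio of rich to low spots of -3.00, and for Rcn3, with 1.91. Chance alone marks about 1 in 20 groups in this way.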

How the results depend on the processing

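The count at 36 h (5017) stayed within 1.5 times of itself under every alternative apart from the model with no replicate block (2074) and the one without section A of 36 h, and ranged from 3310 to 5089 when a section was left out. A count of similar size need not hold the same genes. Under total UMIs 7052 genes were called, and only 3254 of the 5017 were among them, while median-of-ratios factors kept 4767. Section, not its letter, was the block: A and B are letters of sections of different animals at different times and pair nothing. With no replicate block the counts against 48 h and 24 h were 0 and 0. The count against 48 h (1423) was 946 with DESeq2 and 2460 with spots ranked by Gpnmb alone, and ran from 701 (without section A of 36 h; 778 without B) to 1401 over left-out sections. The count against 24 h (183) was 289 under total UMIs, 423 with no filter, 97 with DESeq2, 329 with all 11 sections, 94 with the top 5% of spots, 59 with thinned spots, 59 with Cd68 alone and 53 with Gpnmb alone, and ran from 43 (without section A of 24 h; 68 without B, 85 and 78 without A and B of 36 h) to 239. Some values changed sign: Tm4sf1 to 0.17 and Timp3 to 0.33, neither called, and the stellate list median to 0.39 under total UMIs, and the mesothelial list median to -0.11 with all other spots as reference and to -0.055 without section B of 36 h. For single named genes 928 values kept their direction and side of the threshold, 57 were no longer called, 3 became called and 2 turned. The causes were not tested. Genes of few UMIs per sum, such as lymphocyte and mesothelial markers, are limited by depth.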
